A study of Homo sapiens with 4 samples.

Results

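Phase II conjugating enzymes attach a polar group to drugs, hormones, bile pigments and reactive metabolites, and the liver is their main site of action. UDP-glucuronosyltransferases (UGTs) add glucuronic acid, glutathione S-transferases (GSTs) add glutathione, and sulfotransferases (SULTs) add sulfate. Many of their genes lie side by side in tandem arrays that arose by duplication, and the UGT1A enzymes are made from alternative first exons joined to shared last exons. The genes described here were the protein-coding genes of GENCODE release 44 on GRCh38 whose symbols begin with UGT1A, UGT2, GSTA, GSTM, GSTP, GSTT, GSTO, GSTZ, GSTK, MGST or SULT. The rule found 53 of 20046 protein-coding genes: 9 UGT1A, 10 UGT2, 17 cytosolic GST, 4 membrane or mitochondrial GST (MGST1, MGST2, MGST3 and GSTK1) and 13 SULT genes. They lay on 12 chromosomes in 36 loci, where a locus is a stretch of overlapping gene windows, and 23 of the genes shared a locus with another member.

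RNAPII-linked DNA loops were measured by POLR2A HiChIP-seq in HepG2 cells, a human liver cancer line, that received sterilized water (mock) or, for 24 h, 20 µM pyridostatin (PDS), a ligand of guanine quadruplex (G4) DNA. Both conditions had 2 biological replicates, but only 1 combined list of loops was analysed for each condition, so there was no spread between replicates and no test between conditions. A loop joins 2 anchors, which are stretches of MboI fragments, and its strength is its number of paired-end tags (PETs). In all, 66417 loops (254647 PETs) were listed for mock-treated and 18778 (67001 PETs) for PDS-treated cells. Every listed loop had at least 3 PETs, so that absence from a list leaves room for up to 2. Falls of single unlisted loops are given against a floor of 3 PETs, the lowest listed count, and are thus cautious lower bounds. The library depths behind these sums were not given, and fewer contacts and fewer sequenced tags cannot be told apart.

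A loop was counted at a gene when an anchor overlapped the gene body or 10 kb on either side of it, and once for any group of genes. By this rule the phase II genes held 152 loops with 578 PETs in mock-treated cells and 37 loops with 126 PETs in PDS-treated cells. The PDS/mock ratio was 0.243 for loops (95% counting interval 0.170 to 0.348) and 0.218 for PETs (0.180 to 0.264). Over the whole lists the ratios were 0.283 and 0.263. At all protein-coding genes, counted by the same rule, they were 0.269 and 0.245, inside the phase II intervals. At the 57 cytochrome P450 genes, which carry out the oxidation that comes before conjugation, they were 0.268 (0.187 to 0.382) and 0.253 (0.208 to 0.309). The intervals of the phase II and P450 genes overlapped. Intervals treat every PET as independent and cover counting error only, whereas PETs come in loops of 3 or more.

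In the mock list 45 of the 53 genes had a loop, beside 77.3% of all protein-coding genes, and in the PDS list 32 had one, beside 48.0%. Of the 45 genes, 13 had no loop in the PDS list, beside 40.3% of all genes with a mock loop. Among the 29 members with at least 10 mock PETs, 27 (93.1%) had at least 2-fold fewer in the PDS list, beside 92.7% of all such genes, and none had at least 2-fold more, beside 0% of all. The 2 others were SULT1A2 and SULT6B1. At their own start sites SULT1A2 had 17 mock and 3 PDS PETs and SULT6B1 had 8 and 0. PETs were lower in the PDS list at 41 members, equal at 4 (GSTP1, GSTA5, UGT1A3 and UGT1A4) and higher at none. No loop in either list was found at 8 members. These were SULT1A4, SULT4A1, GSTT2, GSTT2B, UGT2A1, UGT2A2, UGT2B17 and UGT2B28. The share of 2-fold falls was thus near that of all protein-coding genes.

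**Figure D1:**
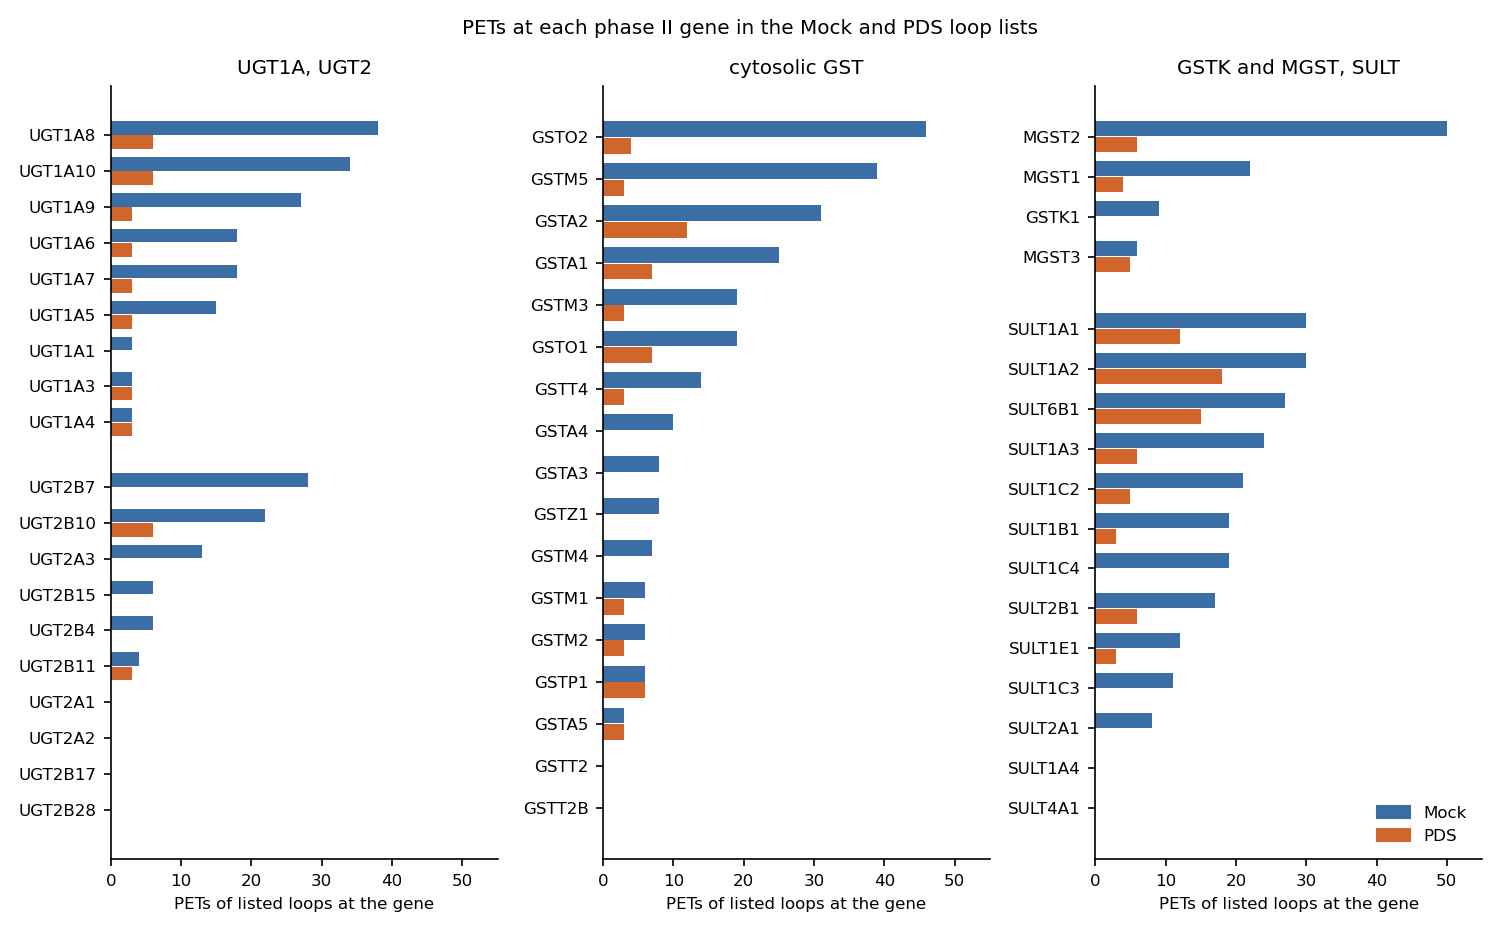
PETs of the listed loops at each of the 53 genes (x axis), in the mock list (blue) and the PDS list (orange), grouped by family and ordered by mock PETs. No orange bar is longer than the blue bar of its gene, and MGST2, with 50 and 6 PETs, and GSTO2, with 46 and 4, have the longest mock bars.

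Overlapping genes share loops, so the values of neighbours do not add up.

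Glucuronidation of bilirubin and many drugs depends on the UGT1A locus on chromosome 2. Its 9 genes run to one common end, so the window of UGT1A8, the outermost gene, takes in every loop of the locus. This window held 11 loops with 38 PETs in the mock list and 2 loops with 6 PETs in the PDS list, a PET ratio of 0.158 (0.0684 to 0.364). The windows are nested, so counts can only fall toward the common end. Mock PETs were 34 at UGT1A10, 27 at UGT1A9, 18 at both UGT1A7 and UGT1A6, and 15 at UGT1A5. At UGT1A4, UGT1A3 and UGT1A1, the gene of the bilirubin-conjugating enzyme, 3 mock PETs were left, all from 1 loop between chr2:233764458-233768821, within the bodies of all 9 genes, and chr2:233783778-233805540. In the PDS list UGT1A8 and UGT1A10 had 6 PETs, UGT1A1 had none, and the 6 other genes had 3. The strongest loop of the locus, with 5 PETs, joined the UGT1A6 start site at chr2:233688038-233694922 to chr2:233695446-233707008 within the overlapping gene bodies and was not in the PDS list.

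A pair of loops joined start sites of different UGT1A genes, and neither was in the PDS list. The loop from UGT1A8 (chr2:233614899-233618966) to UGT1A10 (chr2:233622413-233638192) had 4 mock PETs and was at least 1.33-fold lower against the floor of 3 PETs. The loop from UGT1A7 (chr2:233680283-233685166) to UGT1A6 (chr2:233688038-233694922) had 3. In the UGT1A8 and UGT1A10 anchors 43.6% and 35.1% of 31-base sequences occurred more than once in the genome. For 100-base sequences the shares were 3.25% and 1.95%. Whether tags were placed at the wrong copy was not tested. The 1 loop listed in both conditions ran from the UGT1A10 start site to chr2:233586603-233595176 and had 3 PETs in each list. The only loop new to the PDS list had 3 PETs and ended at the UGT1A3 start site. Contacts of start sites were few in both lists, with 0 to 8 mock PETs and 0 to 3 PDS PETs at the start sites of single genes.

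The UGT2 enzymes conjugate steroids, bile acids and drugs such as morphine, and their genes lie along chromosome 4. They had the lowest PET ratio of the 5 families, 0.114 (0.0579 to 0.224), with 22 loops and 79 PETs in the mock list and 3 loops and 9 PETs in the PDS list. UGT2B7, the main morphine-conjugating enzyme, had 7 loops with 28 PETs in mock-treated cells and none in PDS-treated cells. Of its mock loops 5, with 21 PETs, had an anchor at a start site of the gene, the most of all members, and 1 anchor in all of them (chr4:69078154-69098003) covered the 250 bases before the RefSeq start site shown here. UGT2B10 had 22 and 6 PETs, UGT2A3 had 13 and 0, UGT2B15 and UGT2B4 had 6 and 0, and UGT2B11 had 4 and 3. The 2 loops that UGT2B10 kept had 3 PETs in both lists, and 1 of them spanned 183 kb from chr4:68822461-68831971 to chr4:69005092-69014806. The strongest UGT2B10 loop, with 6 mock PETs over 203 kb from its start site, was not in the PDS list. The far anchors of both long loops overlap UGT2B27P, a pseudogene of the same family. In the anchors of these loops 32.6% to 43.6% of 31-base sequences occurred more than once in the genome. For 100-base sequences the share was 0.945% to 4.48%. Whether tags were placed at the wrong copy was not tested.

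The sulfotransferase genes SULT1B1 and SULT1E1 continue the same stretch of chromosome 4. With the 10 UGT2 genes they went from 30 loops (106 PETs) to 5 (15 PETs), a PET ratio of 0.142 (0.0829 to 0.241). The ratio of all chromosome 4 loops was 0.20 (0.187 to 0.213), inside the interval of the cluster. Without the 12 genes of the cluster the phase II ratio was 0.235 (0.191 to 0.289).

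Among the members matched to a RefSeq (GRCh38.p14) promoter, those with the most mock PETs at their start sites are shown, 1 per locus. MGST2 and SULT1A2, with 18 and 17 mock PETs at start sites, were not matched. The sequences are the 250 bases before the start, 5′ to 3′ on the strand of the gene. UGT2B7 had 21 mock and 0 PDS PETs at its start sites, GSTA2 16 and 8, SULT1C2 16 and 5, and GSTO2 15 and 4. Both SULT1C2 and GSTO2 have several annotated start sites, and loops whose anchor overlapped the printed bases had 13 mock and 0 PDS PETs at SULT1C2 and 9 and 4 at GSTO2. Capitals in SULT1C2 mark the ARE core. GSTA1 is set beside GSTA2, and capitals in these sequences mark the 7 of 250 bases at which they differ.
UGT2B7, chr4:69096224-69096473, + strand: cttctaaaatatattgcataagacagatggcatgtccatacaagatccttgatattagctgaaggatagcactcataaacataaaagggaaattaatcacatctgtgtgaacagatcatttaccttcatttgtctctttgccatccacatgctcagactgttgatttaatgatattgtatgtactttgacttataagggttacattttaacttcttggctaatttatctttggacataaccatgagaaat
SULT1C2, chr2:108288645-108288894, + strand: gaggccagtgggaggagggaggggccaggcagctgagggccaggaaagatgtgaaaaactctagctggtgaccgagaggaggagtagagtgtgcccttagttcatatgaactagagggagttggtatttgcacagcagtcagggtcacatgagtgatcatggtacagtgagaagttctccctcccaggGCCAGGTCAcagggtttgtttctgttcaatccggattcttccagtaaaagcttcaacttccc
GSTO2, chr10:104268934-104269183, + strand: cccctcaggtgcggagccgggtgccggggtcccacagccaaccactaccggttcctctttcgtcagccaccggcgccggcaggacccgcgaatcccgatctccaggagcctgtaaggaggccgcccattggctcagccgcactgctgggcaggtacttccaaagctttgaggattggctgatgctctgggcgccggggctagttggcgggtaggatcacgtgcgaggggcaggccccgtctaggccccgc
GSTA2, chr6:52763476-52763725, - strand: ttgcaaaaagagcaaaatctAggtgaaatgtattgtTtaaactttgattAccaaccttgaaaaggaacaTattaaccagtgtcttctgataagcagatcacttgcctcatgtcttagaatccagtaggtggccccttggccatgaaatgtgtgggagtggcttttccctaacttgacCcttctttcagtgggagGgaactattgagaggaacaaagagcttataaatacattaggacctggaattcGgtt
GSTA1, chr6:52803817-52804066, - strand: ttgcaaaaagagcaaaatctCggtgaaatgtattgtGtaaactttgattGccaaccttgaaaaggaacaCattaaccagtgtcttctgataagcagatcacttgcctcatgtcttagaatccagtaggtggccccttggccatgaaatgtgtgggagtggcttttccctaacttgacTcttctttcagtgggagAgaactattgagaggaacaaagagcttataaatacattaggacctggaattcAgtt

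The sequences differ in base composition, with a GC content of 32.8% for UGT2B7, 40.4% for GSTA2, 52.4% for SULT1C2 and 68% for GSTO2. The box TATAAA lies 30 to 25 bases before the start of both GSTA1 and GSTA2. The core of the antioxidant response element (ARE; TGACNNNGC, the site of the NRF2 factor) occurs in SULT1C2 on the reverse strand, 62 to 54 bases before the start. RefSeq held a promoter window of 300 bases (250 before and 50 after the start) for 43 of the 53 genes and for 15345 protein-coding genes. The ARE core was in 9 of the 43 windows (20.9%) and in 14.3% of all windows, searched on both strands. TATAAA was in 12 (27.9%) against 9.63%, the xenobiotic response core GCGTG in 13 (30.2%) against 44.3%, and the HNF1 core GTTAATNAT in 1, that of UGT1A3, against 0.541%. The median GC content was 45.7% over the 43 windows and 63% over all. A match is a run of letters and no measure of binding.

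Among the cytosolic GSTs, which detoxify electrophiles and peroxides, 15 of 17 genes had a mock loop and 11 a PDS loop. The family had 50 loops with 186 PETs in the mock list and 10 loops with 34 PETs in the PDS list, a PET ratio of 0.183 (0.127 to 0.263). The alpha class on chromosome 6, the major GSTs of hepatocytes, held 62 and 15 PETs. GSTA2 had 31 and 12 PETs, GSTA1 25 and 7, GSTA4 10 and 0, GSTA3 8 and 0, and GSTA5 3 in each list. GSTA2 thus had more PETs than the other alpha genes in both lists.

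Of the 3 GSTA2 loops of the PDS list 2 were also in the mock list, and both used the anchor over its start site (chr6:52761277-52771434). The loop to chr6:52745018-52750388 at the other end of the gene had 6 mock and 4 PDS PETs, a log2 ratio of -0.58. The loop to chr6:52774805-52779227 had 4 in both. The remaining PDS loop, with 4 PETs and not in the mock list, joined the GSTA2 end to the GSTA1 body over 44.8 kb. The loop between the start sites of GSTA2 and GSTA1 (chr6:52797989-52806052) had 3 mock PETs and was not in the PDS list. The sequences before these starts were 97.2% identical, so some tags can have been placed at the wrong copy. In the anchors of the alpha genes 25.1% of 31-base sequences, but 2.84% of 100-base sequences, were repeated elsewhere in the genome.

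The mu class on chromosome 1 had a PET ratio of 0.0652 (0.0215 to 0.198), going from 14 loops with 46 PETs in the mock list to 1 loop with 3 PETs in the PDS list. Loops within 500 kb of the locus, without its own, went from 57 to 19, with a PET ratio of 0.295 (0.225 to 0.387). Of the 31 loci with a mock loop, this was the only 1 whose PET interval lay below that of its neighbourhood, and at 2 loci, GSTP1 and UGT2B11, it lay above. The UGT2B11 value rests on 1 loop in each list, of 4 and 3 PETs, outside the gene body. Its neighbourhood takes in loops of other UGT2 genes, so the family is partly compared with itself there. For loops the mu ratio was 0.0714 with a wide interval (0.0120 to 0.425). Of the 14 mock loops 12, with 39 PETs, lay in the window of GSTM5, none of them at a GSTM5 start site. GSTM3 had 19, GSTM4 had 7, and GSTM1 and GSTM2 had 6 each. The anchor at chr1:109746635-109774674 also covers the start site of the neighbouring gene EPS8L3, and it carried the single PDS loop, of 3 PETs, to the GSTM1 and GSTM2 bodies. Most mock loops of the locus used this anchor or chr1:109781899-109794917, which lies past the GSTM5 end and in no member body. The ratio of the locus is thus not that of the mu genes alone. PETs at annotated start sites of the mu genes were 7 at GSTM4 and 3 at GSTM3 in the mock list and 0 at all 5 genes in the PDS list.

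The omega genes GSTO1 and GSTO2 on chromosome 10, whose products reduce dehydroascorbate and methylated arsenic, had 50 PETs in the mock list and 7 in the PDS list. GSTO2 had 46 and 4, and GSTO1 had 19 and 7. The anchor at the GSTO2 end (chr10:104297122-104310309) formed the strongest pair of loops, with 8 mock PETs to the start site of ITPRIP at chr10:104337303-104344252 and 8 to that of CFAP58 at chr10:104348229-104358592. Both were missing from the PDS list, at least 2.67-fold lower against the floor. This anchor also overlaps the body of ITPRIP, so the loops cannot be given to GSTO2 alone. In PDS-treated cells the same anchor was joined to the GSTO2 start site (chr10:104258799-104271822) by 4 PETs, a loop not in the mock list.

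GSTP1, a GST that many tumours express, was 1 of the 4 genes whose PETs were equal. It had 2 loops with 6 PETs in each list, but the loops were different. Its start-site anchor (chr11:67578540-67589416) reached chr11:67552244-67555794 and, over 400 kb, chr11:67979122-67988821 in mock-treated cells, and chr11:67591115-67594752 and the start site of ACY3 in PDS-treated cells. The PET ratio of 1 (0.340 to 2.94) lay above that of the loops within 500 kb, 0.190 (0.125 to 0.288). At 3 PETs a loop, each of these loops was at the minimum. GSTZ1, an enzyme of tyrosine breakdown, had 8 and 0 PETs, and GSTT4 had 14 and 3, in 4 and 1 loops. The PDS loop and most mock loops of GSTT4 used an anchor (chr22:24006118-24012563) within 1 kb of its start but outside its body. This anchor also covers the start of the neighbour CABIN1. The theta genes GSTT2 and GSTT2B had no loop.

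The membrane-bound MGST enzymes and the mitochondrial GSTK1 had 87 PETs in the mock list and 15 in the PDS list, a ratio of 0.172 (0.10 to 0.296). MGST2, which also makes leukotriene C4, had the most mock PETs of all members, 50 in 11 loops, and 6 PETs in 2 loops in the PDS list. Its start-site anchor (chr4:139663145-139667635) had 18 mock PETs in 2 loops of 9 PETs, the strongest of the mock list among all members. They ran to the flanking anchors chr4:139654417-139662109 and chr4:139668339-139679031 and were both missing from the PDS list, at least 3-fold lower. The loop that skips the start site and joins the same flanking anchors was kept, with 4 mock and 3 PDS PETs. MGST1 had 22 and 4 PETs, and its only PDS loop, of 4 PETs, spanned 751 kb and was not in the mock list. GSTK1 had 9 and 0.

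MGST3 stood apart with 6 and 5 PETs. Its loop from the start site (chr1:165623017-165633348) to chr1:165609027-165616971 had 3 mock and 5 PDS PETs, a log2 ratio of 0.74, and it was the only 1 of the 16 shared loops of all members with more PETs in the PDS list. Of the other shared loops 7 had fewer and 8 had as many, 7 of these with 3 PETs in both. Of the 7333 shared loops of the whole lists, 4057 had fewer, 2209 as many and 1067 more. A difference of 2 PETs is within counting error.

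**Figure D2:**
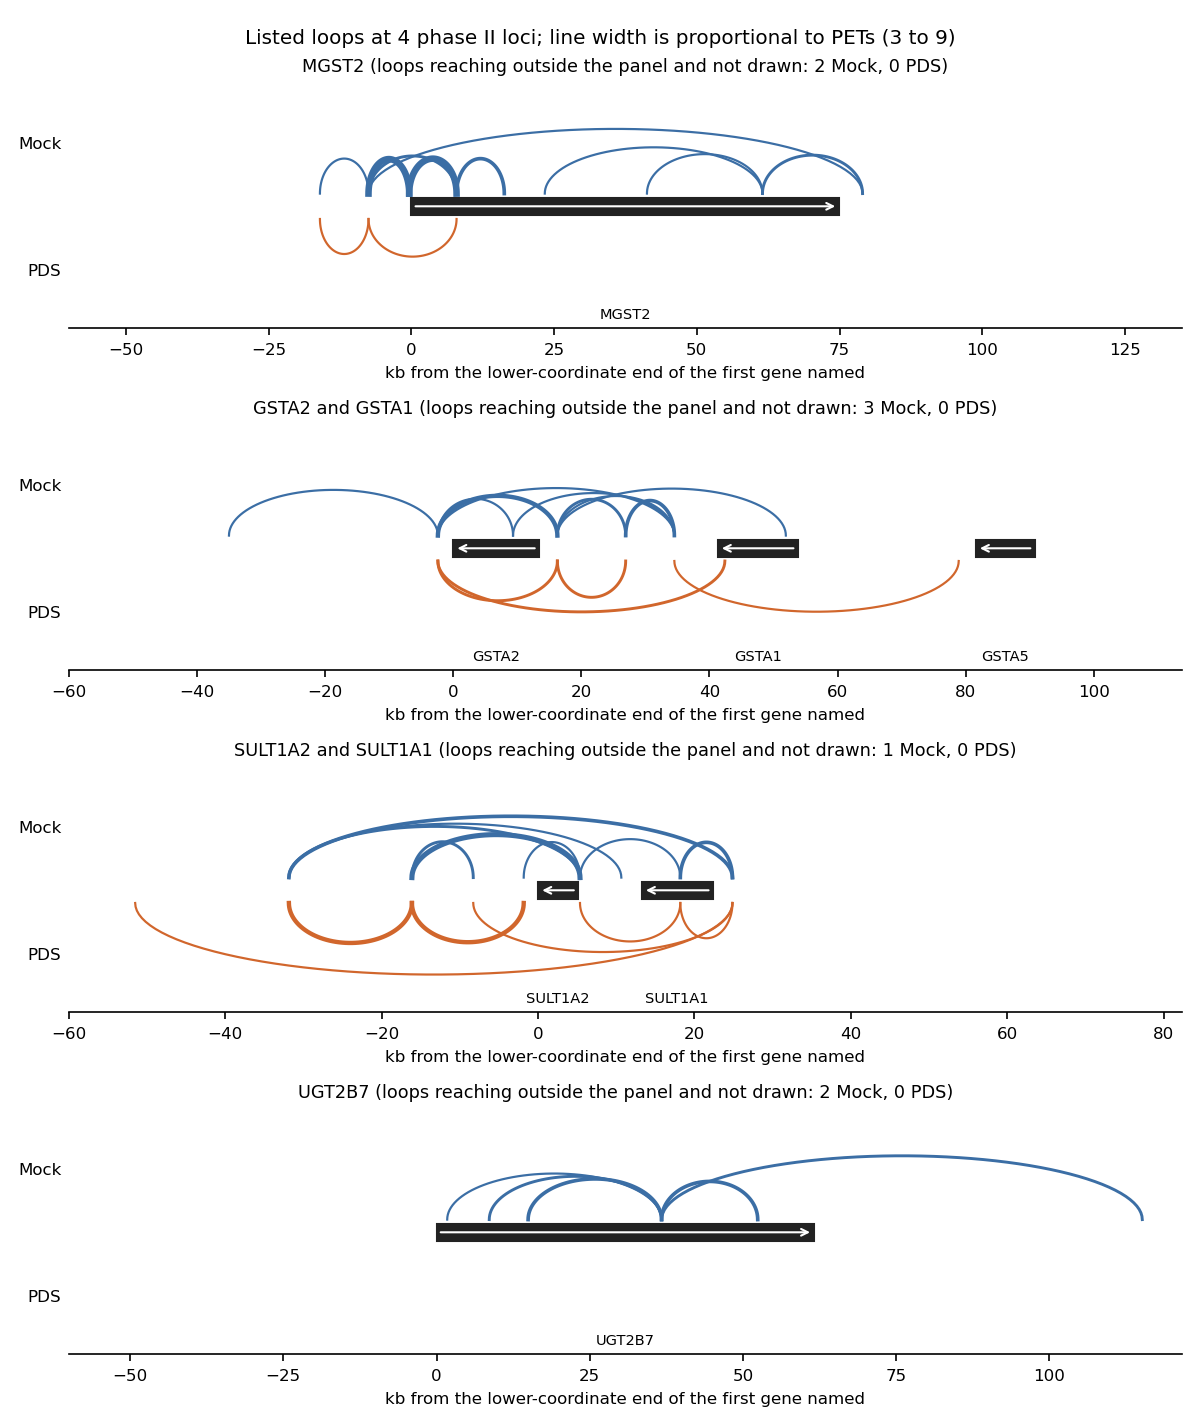
Loops listed at MGST2, at GSTA2 and GSTA1, at SULT1A2 and SULT1A1 and at UGT2B7, drawn between anchor midpoints, with the distance in kb on the x axis, gene bodies as black bars and white arrows in the direction of transcription, mock loops (blue) above and PDS loops (orange) below, with a line width in proportion to PETs, and loops that reach outside a panel are not drawn. The 2 loops of 9 PETs at the MGST2 start have no orange partner, UGT2B7 has no orange loop, and at SULT1A2 the orange loops of 6 PETs have no blue partner.

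The SULT genes, which act on phenols, steroids and thyroid hormone, had the highest PET ratio of the families. They held 46 loops with 188 PETs in the mock list and 18 loops with 62 PETs in the PDS list, a PET ratio of 0.330 (0.248 to 0.439) and a loop ratio of 0.391 (0.228 to 0.670). The 40 other members had 0.164 (0.126 to 0.214) for PETs and 0.179 (0.111 to 0.291) for loops, so the intervals were apart for PETs and overlapped for loops. The 4 genes on chromosome 16 carried much of this, since without them the SULT ratio was 0.258 (0.175 to 0.38). At their own start sites SULT1A2 had 17 mock and 3 PDS PETs, SULT1A1 had 8 and 6, and SULT1A3 and SULT1A4 had none. Part of the other loops in their windows lay at the neighbours SGF29 and CORO1A, so the ratio is not that of SULT contacts alone. All chromosome 16 loops had a PET ratio of 0.344 (0.335 to 0.354), above the 0.263 of the whole lists, and a loop ratio of 0.317. Nearer loops, within 500 kb of each locus and without its own, had lower PET ratios. These were 0.287 (0.206 to 0.399) at SULT1A2 and SULT1A1, 0.194 (0.149 to 0.253) at SULT1A3 and 0.192 (0.134 to 0.276) at SULT1A4.

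SULT1A1 and SULT1A2, neighbours on chromosome 16 whose products sulfate small phenols, each had 30 mock PETs in 7 loops, of which they shared some, and 12 and 18 PDS PETs. Their locus had 9 mock loops and 6 PDS loops. The loop between their start sites (chr16:28595641-28598971 and chr16:28608302-28611965) had 3 PETs in both lists and was the only loop of the PDS list that joined start sites of different members. In these anchors 34.2% and 36.3% of 31-base sequences occurred more than once in the genome. For 100-base sequences the shares were 10.1% and 9.57%. Whether tags were placed at the wrong copy was not tested. The loop of the SULT1A1 start to chr16:28614659-28618940 had 5 mock and 3 PDS PETs. The strongest mock loop, of 7 PETs, ran from the SULT1A2 start to chr16:28569563-28582069 within the gene SGF29 and was not in the PDS list. In PDS-treated cells the SGF29 anchor was in 2 loops of 6 PETs that the mock list lacked, to chr16:28552426-28567746 and chr16:28586538-28593682, both over start sites of SGF29. No other PDS loop at a member had as many PETs, and both lay at a neighbour's start sites, although 1 of these anchors also overlaps the SULT1A2 body.

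SULT1A3, which sulfates dopamine, had 24 and 6 PETs, but every loop in both lists used 1 anchor (chr16:30176478-30189558) over the start of the neighbour CORO1A. This anchor reached the window of SULT1A3 but not its body. The strongest of these loops, to chr16:30164592-30175622, had 8 mock and 3 PDS PETs, and no loop had an anchor at a SULT1A3 start site. Its near-identical copy SULT1A4 had no loop. The RefSeq promoter windows of these genes were 300 of 300 bases identical, and 99.1% and 99.0% of the 31-base sequences of their bodies occurred more than once in the genome. The lack of loops at SULT1A4 cannot be told apart from tags that could not be placed.

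SULT6B1 had 27 and 15 PETs in 7 and 5 loops, 3 of them shared. The strongest (chr2:37155892-37159626 to chr2:37161170-37174694, 7 mock and 3 PDS PETs) joined the start of EIF2AK2 to the far end of SULT6B1, and no PDS loop had an anchor at a SULT6B1 start site. The SULT1C genes, also on chromosome 2, had 45 and 5 PETs. SULT1C2 had 21 and 5, SULT1C4 19 and 0, and SULT1C3 11 and 0. The SULT1C2 loop between 2 of its own start-site anchors (chr2:108280288-108291671 and chr2:108293290-108298078) had 7 mock PETs and was not in the PDS list, and the loop of the second anchor to chr2:108298851-108305930 had 5 PETs in the PDS list and was not in the mock list. A loop of 3 mock PETs between the SULT1C3 and SULT1C2 start sites was not in the PDS list. SULT1B1 had 19 and 3 PETs, SULT2B1, the cholesterol sulfotransferase, 17 and 6, SULT1E1, the estrogen sulfotransferase, 12 and 3, and SULT2A1, which sulfates bile acids and DHEA, 8 and 0. SULT4A1, a brain form, had none.

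**Figure D3:**
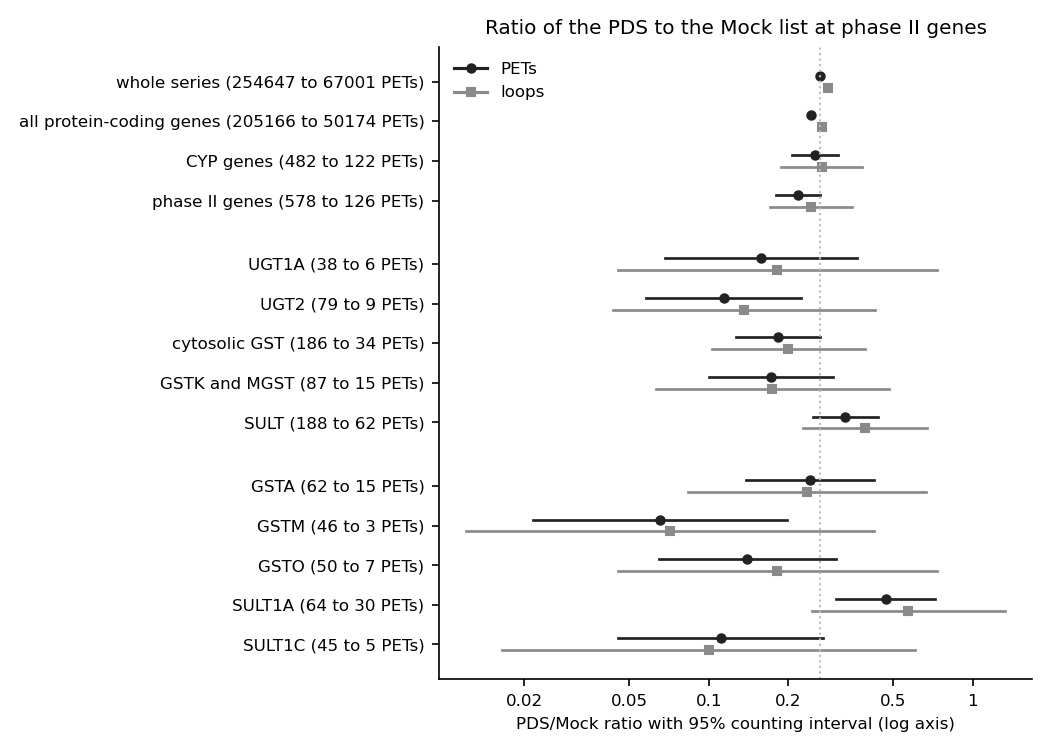
PDS/mock ratios of PETs (black circles) and loops (grey squares) with their 95% counting intervals on a log axis, for the whole lists, all protein-coding genes, the P450 genes, the phase II genes, the 5 families and 5 classes, with a dotted line at the PET ratio of the whole lists, 0.263. The PET intervals of all protein-coding genes (0.242 to 0.247), the UGT2 family (0.0579 to 0.224) and the mu class (0.0215 to 0.198) lie below the line. That of the cytosolic GSTs (0.127 to 0.2629) lies just below it, and that of the SULT1A class (0.305 to 0.721) lies above it. The loop intervals of the UGT2, mu and SULT1A sets (0.0435 to 0.428, 0.0120 to 0.425 and 0.246 to 1.33) all include the whole-list loop ratio of 0.283. That of the cytosolic GSTs (0.103 to 0.389) does too, and that of all protein-coding genes (0.265 to 0.274) lies below it. Part of the mu and SULT1A loops lay at neighbouring genes.

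Contacts of start sites and other contacts fell with intervals that overlapped. In the mock list 31 members had a loop at a start site of their own (within 1 kb), beside 53.7% of all protein-coding genes, and in the PDS list 13 had one, beside 22.9%. Member loops with an anchor at a member's start site had a PET ratio of 0.187 (0.139 to 0.251), and the other member loops 0.247 (0.191 to 0.318). The other anchor lay at the start site of another protein-coding gene for 32 of 152 mock loops (21.1%, Wilson interval 15.3 to 28.2%) and for 9 of 37 PDS loops (24.3%, 13.4 to 40.1%). For 35 mock and 11 PDS loops, an anchor in a member's window overlapped the body of a neighbour that is no member. The median distance between anchors was 22.5 kb in the mock list and 16.2 kb in the PDS list, against 17.4 and 17.2 kb for all loops.

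A predicted G4 motif was taken as 4 runs of 3 or more G on 1 strand, with 1 to 7 bases between runs. Such a motif lay within 1 kb of the canonical start site of 26 of the 53 genes, beside 68.6% of all protein-coding genes. The families differed. Motifs were found at 11 of 17 cytosolic GST genes, at 4 of 4 MGST and GSTK1 genes and at 10 of 13 SULT genes, but at 1 of 9 UGT1A genes and at 0 of 10 UGT2 genes. Members with a motif had a PET ratio of 0.246 (0.192 to 0.315) and members without one 0.184 (0.137 to 0.247), so the intervals overlapped. At least 1 anchor held a motif in 114 of 152 mock loops (75%) and 28 of 37 PDS loops (75.7%), as in 75.2% and 75.5% of all loops. The PET ratio was 0.217 (0.175 to 0.271) for member loops with a motif in an anchor and 0.220 (0.147 to 0.328) for those without. A motif in the reference says nothing of a folded G4 in these cells.

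The motifs printed here lay at start sites of members described above, and capitals mark the runs of G. In the direction of transcription and counted from the canonical start, the first base of the motif lies at -164 in MGST2 and -120 in GSTP1, on the strand of the gene. On the opposite strand it lies at -102 in both SULT1A3 and SULT1A4.
MGST2, chr4:139665655-139665678, + strand: GGGaaGGGcgtGGGGatgaaaGGG
GSTP1, chr11:67583692-67583719, + strand: GGGGctGGGGccggcGGGagtccgcGGG
SULT1A3, chr16:30199153-30199173, - strand: GGGGtGGGGttgaGGGtGGGG
SULT1A4, chr16:29459811-29459831, - strand: GGGGtGGGGttgaGGGtGGGG
MGST2 had 18 and 0 PETs at its start sites in the mock and PDS lists, GSTP1 6 and 6, and SULT1A3 and SULT1A4 none. Members with such a motif thus ranged from the loss of all listed start-site PETs to an equal count. UGT2B7, with no motif within 1 kb, had 21 and 0.

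Because the families arose by duplication, repeated sequence bears on where tags could be placed. More than 1 copy in the genome (alternate contigs left out) was found for 20.0% of 31-base sequences of the gene bodies and for 16.5% of those of the loop anchors, against 15% in the anchors of P450 genes. With 100-base sequences the share was 3.62% in bodies and 1.36% in anchors. It was highest in SULT1A3 and SULT1A4 (94.5% each), GSTT2 (58.5%) and GSTT2B (57.3%). Of these 4 genes 3 had no loop, and the loops of SULT1A3 lay outside its body. Of 152 mock loops, 126 had an anchor in which over 10% of 31-base sequences were repeated, and 33 of 37 PDS loops had one. The same share was not determined for all loops, so these counts cannot be read as particular to these genes. The 21 members with over 25% repeated sequence in the body, a limit set after the values were seen, had a PET ratio of 0.345 (0.263 to 0.453) and the 32 others 0.164 (0.127 to 0.213). The 21 include the 4 SULT1A genes on chromosome 16, which had a ratio of 0.469 (0.305 to 0.721), and all loops of that chromosome had 0.344. Loops within 500 kb of the SULT1A loci had PET ratios of 0.192 to 0.287. A loop at genes of both groups was counted in each. Repeats moved with the ratio, and their part in it was not tested.

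**Figure D4:**
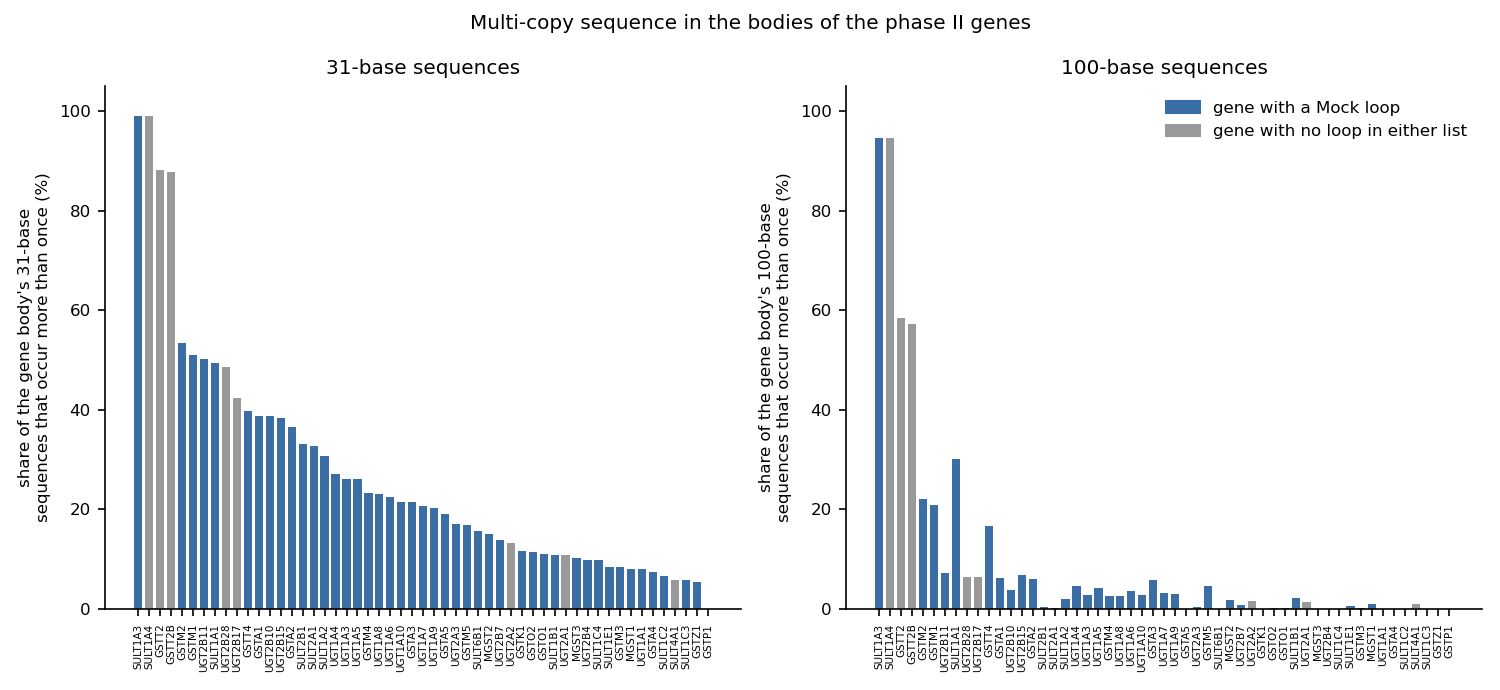
Share of the 31-base (left) and 100-base (right) sequences of each gene body that occur more than once in the genome, in percent, with genes in the same order in both panels and bars in blue for genes with a mock loop and in grey for the 8 genes with no loop in either list. The 4 tallest bars in both panels are SULT1A3, which is blue, and SULT1A4, GSTT2 and GSTT2B, which are grey. The loops of SULT1A3 lay in its window but outside its body.

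The genes that serve conjugation were counted by the same rule. The 12 cofactor genes serve the making, transport or turnover of UDP-glucuronic acid, PAPS and glutathione. Of these, 12 had a mock loop and 5 a PDS loop, with 295 and 33 PETs and a ratio of 0.112 (0.0782 to 0.16). Of 8 transporters that carry conjugates or drugs across membranes 7 had a mock loop and 4 a PDS loop, with 360 and 66 PETs, and of 11 regulators such as NFE2L2 (NRF2) and AHR 10 and 6, with 474 and 83 PETs. Among genes with at least 10 mock PETs, 9 of 9 cofactor genes, 6 of 6 transporters and 7 of 8 regulators had at least 2-fold fewer in the PDS list, and 0 had at least 2-fold more. Among all protein-coding genes the share with 2-fold fewer was 92.7%, and 77.3% had a mock loop and 48.0% a PDS loop. The cofactor genes had the lowest ratio of these 3 lists, and its interval lay below the 0.263 of the whole lists.

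Levels of different genes are not on one footing. Per 100 kb of window, the median was 22.2 mock PETs for the phase II genes and 16.3 for all protein-coding genes, and mock loops per Mb of chromosome ran from 7.80 on chromosome 4 to 50.9 on chromosome 16. HepG2 is known to carry extra copies of some chromosomes, and copy number and contact frequency cannot be told apart here. On the same scale SULT1A2 stood highest, with 119 mock PETs per 100 kb, followed by SULT1A1 with 103 and SULT1A3 with 95.7, all on chromosome 16. GSTA2 on chromosome 6 came next with 92.8. The window anchors of all SULT1A3 loops and of some SULT1A2 loops lay at a neighbouring gene. As a check of the label, 10 of 10 hepatocyte marker genes had a mock loop and 9 a PDS loop, but so did 8 and 5 of 10 markers of other lineages, so these lists mark loops near genes and do not by themselves identify the cell type.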

How the data were processed

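POLR2A HiChIP-seq libraries of mock- and PDS-treated HepG2 cells were grouped by their labels. The authors aligned reads to GRCh38 and processed them with HiC-Pro version 3.1.0, per the labels. They deposited 1 loop list per condition with whole-number counts of PETs and no scaling, and the tool that called loops and combined the 2 replicates is not given in the sources used here. All anchors but 5 of 81742 began and ended at an MboI site of the reference used here, which was taken as the same build. Lists were read whole with Python 3.11.15. Members and gene lists were chosen with earlier results of these data known. Ratios have 95% intervals that follow from Wilson's interval for the part of PETs or loops found in the PDS list (scipy 1.17.1), and shares have Wilson intervals. Counting and k-mer code was tested on simulated data. Every member was named. Other genes were named where they lay at a loop described or belonged to a pathway list. Loops given singly were the 12 with most summed PETs, PDS loops of at least 5 PETs and loops joining start sites of different members, with others chosen after their values were seen. The alternatives changed the window, the minimum PETs, the overlap, the anchors and the motif rule. A gene list and some motif sequences are not reported here.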

Additional observations from a re-analysis of the deposited data

How the results depend on the processing

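Of 44 values under alternative settings, 29 stayed within the counting interval of the reported ratio or within 1.5 times the reported count, 15 moved and 0 changed direction. Only the ratios among them have a direction that could change, and the counts and shares do not. With loops of at least 5 PETs the loop ratio was 0.148 and the PET ratio 0.136, 23 genes had a mock loop and 3 a PDS loop, and 0 loops were shared. Without loops that had an anchor with over 10% repeated 31-base sequence the ratios were 0.154 and 0.143, 15 and 5 genes had a loop, and 0 were shared. With an anchor at a start site 13 genes had a PDS loop and 9 loops were shared. With PETs divided by the sum of each list the PET ratio was 0.829 (0.684 to 1.00), an interval that reached 1. Extending anchors by 5 kb gave 48 shared loops in place of 16. With 100-base sequences 1.36% of anchor sequence was repeated. No paired analysis was possible because the lists combine the replicates, and leaving out single replicates was not run for the same reason. A search at every annotated start site, chosen after seeing the data, found motifs at 28 genes. Loops of 3 PETs, the minimum, made up 55.3% of mock and 75.7% of PDS loops at these genes, so single losses and gains are known with little precision.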

Other observations

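Loops also lay at pseudogenes of the same families. Of 29 pseudogenes that GENCODE names with these prefixes, 14 had a mock loop over the gene body and 4 a PDS loop. GSTA12P, between GSTA2 and GSTA1, had 21 mock and 8 PDS PETs, and some of its loops are those of GSTA2. The processed pseudogene GSTM3P1 on chromosome 20 had 6 mock and 9 PDS PETs. Among the 14 with a mock loop it was the only one with more PETs in the PDS list, and nothing was tested.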
